A study of Homo sapiens with 8 samples.

Results

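The genes described here are 57 human DNA repair and checkpoint genes, from double-strand break repair, the Fanconi anaemia pathway, excision and mismatch repair, translesion synthesis and the checkpoint kinases. They were followed through every skipped-exon event that the deposited splicing tables list under their symbols. Such an event is an exon with its neighbour on each side, in which the exon is either joined in or skipped. The genes had 692 of the 82355 events of the MCF10A table and 921 of the 98244 events of the HMLE-TWIST table. Over both tables this came to 1100 of 123924 events, at 674 exons, and ERCC5 was listed in the MCF10A table alone.

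RNA came from a pair of human breast epithelial lines in culture. MCF10A is a non-tumorigenic line, and HMLE-TWIST is an immortalised breast epithelial line that overexpresses the transcription factor TWIST from an integrated retroviral pBabe-TWIST construct. Each line received either the solvent DMSO or 10 µM emetine, a plant alkaloid that blocks protein synthesis, for 24 h. This gave 4 groups of 2 biological replicates, described by the submitters as such. No HMLE line without TWIST was analysed here, so effects of TWIST, of the parental cells and of handling cannot be told apart between the lines.

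Cells repair breaks in both DNA strands either by joining the ends or by copying from the sister chromatid, the latter with BRCA1 and BRCA2. The Fanconi anaemia proteins open a path around crosslinks between the strands, and the excision and mismatch pathways replace damaged or mispaired bases. ATM and ATR sense damage and pass the signal to CHEK2 and CHEK1, which halt the cell cycle. An exon whose length is no multiple of 3 shifts the reading frame when it is skipped, and an exon that lies in an intron of the usual transcript often brings a stop codon when it is joined in. Transcripts with a stop far before their last exon junction are commonly degraded by nonsense-mediated decay, a process that depends on translation.

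The inclusion level used here is the share of the inclusion form among the inclusion and skipping forms of an event, from 0 to 1. It was worked out from reads across the splice junctions after correction for the number of positions each form offers. An exon can have other levels in events with other neighbours, so the level is no share of all transcripts of a gene. The level is a ratio of the RNAs present, so a change in splicing and a change in the stability of a form cannot be told apart. Changes are given as emetine minus DMSO, between the means of the replicates. An event was tested with at least 20 reads in every library and at least 10 reads in all for the rarer form. It is called changed if the adjusted p-value is below 0.05 and the size of the change is at least 0.1. The junction reads summed over all events ran from 78412292 to 83483642 per MCF10A library and from 90031966 to 91259363 per HMLE-TWIST library. Reads in the repair genes ran from 252544 to 302277 in MCF10A. In HMLE-TWIST they were 350591 and 306061 in DMSO against 603525 and 537937 under emetine, so that the treated libraries were the deeper ones for these genes. The median tested event had 184 to 400 reads per library.

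As a check of the lines, 5 of 7 epithelial markers had an event in MCF10A and 3 of 7 in HMLE-TWIST, and 4 of 5 mesenchymal markers had one in MCF10A, with CDH2 missing, and 5 of 5 in HMLE-TWIST. CDH1, ESRP1 and ESRP2, which mark epithelial cells, had at most 9 reads in any event of any HMLE-TWIST library. KRT5 and KRT14 had no event there, and the best covered KRT5 event of MCF10A had 30793 to 54251 reads. EPCAM and KRT18 had no event in either table. The mesenchymal gene VIM had 95897 to 190386 reads in its best event in HMLE-TWIST against 5912 to 28296 in MCF10A, and TWIST1 had 126 to 199 against 5 to 108. These are reads of single splicing events and not gene expression, and their part in the results was not tested.

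In MCF10A, 202 events in 47 of the genes could be tested, and 38 of them changed, in 21 genes. That is 18.8% of the tested repair events, beside 13.1% of all 25522 tested events of that table. Inclusion rose in 24 events (11.9%, with 7.91% over all genes) and fell in 14 (6.93%, with 5.15%). HMLE-TWIST had 295 testable events, from 53 genes, and 41 of these changed, in 27 genes. Their share of 13.9% lay at the background of 14.0%. Here 18 rose (6.1%, background 6.11%) and 23 fell (7.8%, background 7.91%). Most repair exons thus kept their level within the threshold in both lines. The median change over the tested repair events was 0.00192 in MCF10A and -0.00885 in HMLE-TWIST, beside -0.000168 and -0.00315 over all events. The 2 replicates of DMSO and of emetine did not overlap in 152 of 202 events (75.2%, background 67.4%) and in 208 of 295 (70.5%, background 69.9%), including all 38 and all 41 that changed.

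At least one event changed in 34 of the 57 genes, and 14 genes had a changed event in both lines. By line these were 21 of 47 tested genes in MCF10A, beside 28.3% of all 7858 tested genes, and 27 of 53 in HMLE-TWIST, beside 32.8% of 8062. The chance of a call grows with the number of tested events of a gene, and the counts are not corrected for it. A further 19 genes were tested without a changed event. They include ATM and CHEK1 among the checkpoint kinases, BARD1 and PALB2, the partners of BRCA1 and BRCA2, the helicase BLM, the mismatch genes MSH3, MSH6, PMS1 and PMS2, and the base excision scaffold XRCC1. The other 9 are ERCC3, LIG3, MRE11A, PARP2, POLK, RAD18, RBBP8, RECQL and XPC. Some of the 19 were barely tested. ATM, BLM, ERCC3, LIG3 and MSH6 had no tested event in MCF10A, and 1, 2, 1, 2 and 4 in HMLE-TWIST. MSH3 had 1 in each line. ERCC5, LIG4, PARP1 and XRCC4 had no event with enough reads. The bars of changed events by role show that the genes of BRCA complexes and homologous recombination had the most tested events. This role also holds TP53BP1, MDC1 and RAD18. Of the events of this role, 11 rose and 5 fell among 65 in MCF10A, and 7 rose and 4 fell among 80 in HMLE-TWIST. The checkpoint genes had 8 rises and 1 fall among 25 events in MCF10A and 4 rises and 1 fall among 31 in HMLE-TWIST. The Fanconi genes had 2 rises and 4 falls among 32, and 1 rise and 7 falls among 52. Over all genes, 13.1% of tested events changed in MCF10A (7.91% higher, 5.15% lower) and 14.0% in HMLE-TWIST (6.11% higher, 7.91% lower), and no role was tested against these shares.

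**Figure D1:**
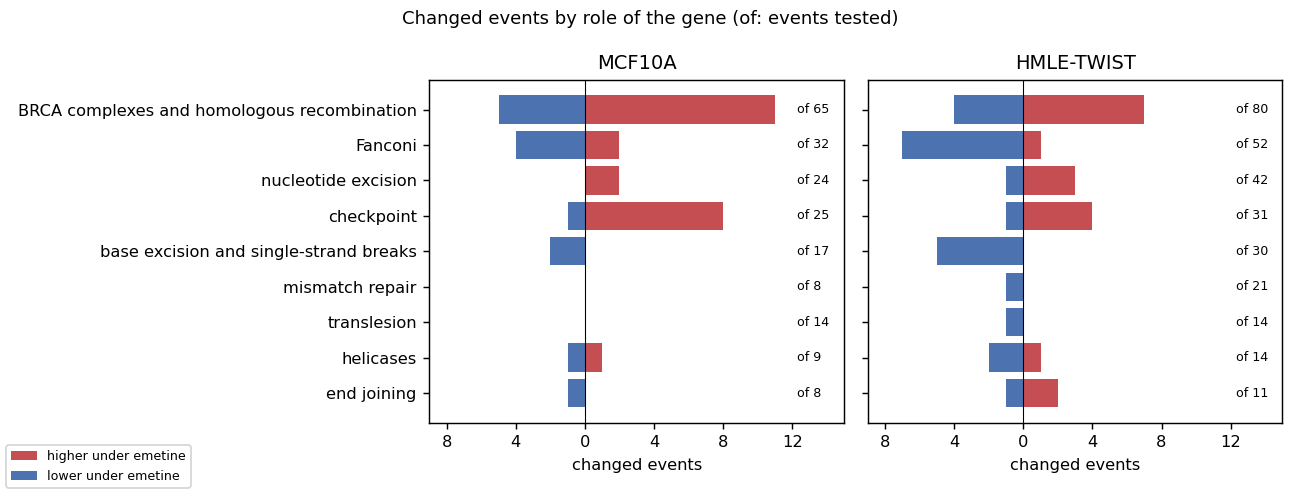
Changed skipped-exon events of the repair genes by role, MCF10A left and HMLE-TWIST right. Bars to the right count events with higher inclusion under emetine and bars to the left events with lower inclusion, with the events tested at the right edge. Genes of BRCA complexes and homologous recombination reach 11 rises and 5 falls in MCF10A. The base excision genes show falls only, 2 of 17 events in MCF10A and 5 of 30 in HMLE-TWIST, beside 5.15% and 7.91% lower over all genes. Of these falls, 2 and 4 are events of MUTYH, which share skipping reads in pairs.

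The direction of change went with the reading frame. Each exon was counted once here, by its event with the most reads, and placed on coding transcripts of GENCODE 29. In MCF10A, 29 tested exons are absent from the coding transcript used as reference and break the frame or bring a stop when joined in. Of these, 12 changed and all 12 rose under emetine. The reference need not be the main transcript of a gene, so this class can hold well included exons. A FANCL exon of 101 nt, for example, had a mean level of 0.788 in HMLE-TWIST DMSO. The opposite class, the exons whose skipping breaks the frame, had 70 tested members in MCF10A, of which 1 rose and 9 fell. In HMLE-TWIST the first class had 4 rises and 1 fall among 30 exons, and the second 2 rises and 18 falls among 118. Each of these 22 and 25 changes concerned a form whose stop codon lies more than 50 bases before the last exon junction. Exons placed as keeping the frame only rose where they changed, 3 of 47 in MCF10A and 7 of 68 in HMLE-TWIST. This class includes exons that are skipped together with a neighbour, where only the joint loss is known to keep the frame. By their own length, 6 of the 47 and 4 of the 68 are no multiple of 3, and 0 and 2 of these changed. The remaining exons, outside the coding region or not placed, had 1 rise and 2 falls in each line, of 25 and 35 tested.

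The same split of directions held over all genes. In MCF10A, 41.4% of the repair exons whose inclusion breaks the frame changed, beside 782 of 3903 over all genes, and 14.3% of those whose skipping breaks it, beside 10.2%. The shares in HMLE-TWIST were 16.7% beside 16.8%, and 16.9% beside 13.4%. None of these shares was tested against the other. Over all genes, 724 of 782 changed exons whose inclusion breaks the frame rose in MCF10A (92.6%), and 602 of 712 whose skipping breaks it fell. In HMLE-TWIST these were 523 of 633 and 1068 of 1197. Frame-keeping exons went both ways over all genes, with 353 rises and 243 falls in MCF10A and 355 and 410 in HMLE-TWIST. Exons with a length that is no multiple of 3 made up 75.0% of the changed and 67.8% of the tested repair exons in MCF10A, beside 63.0% and 60.8% over all genes. In HMLE-TWIST the shares were 71.4% and 66.5%, beside 65.0% and 61.6%. The median level of repair exons whose inclusion breaks the frame was 0.0179 in DMSO and 0.0991 with the drug in MCF10A, and 0.0232 against 0.0569 in HMLE-TWIST, so that most stayed minor forms. Exons whose skipping breaks the frame had medians of 0.986 and 0.953 in MCF10A and 0.992 and 0.96 in HMLE-TWIST.

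**Figure D2:**
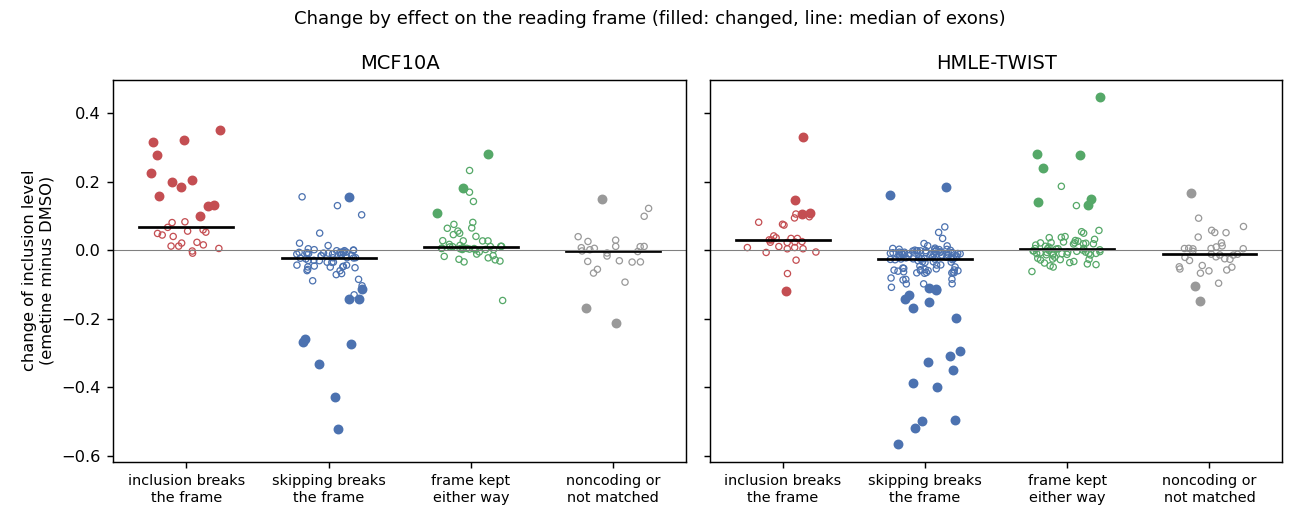
Change of inclusion level (emetine minus DMSO) of each tested repair gene exon, by the effect of the exon on the reading frame, with changed exons filled and the median as a line. Red exons, whose inclusion breaks the frame, lie mostly above 0 and blue exons, whose skipping breaks it, mostly below 0 in both lines.

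Inserted exons of XPA, TP53BP1, RAD51C, ATR and RAD51D carry a stop codon in the frame of the upstream exon. They rose in both lines or differed in their response between the lines, and are printed in full because the stop is what their inclusion adds to the transcript. Each is written 5′ to 3′ as read from GENCODE 29 transcripts of GRCh38, matched by the lengths of exons and introns, and the stop codon is in capitals. Coordinates are those of the deposited tables, on GRCh37 per the submitters' processing notes. The XPA exon lies at chr9:100444482-100444712 and that of TP53BP1 at chr15:43738964-43739112, both on the minus strand. The RAD51C exon is at chr17:56783239-56783383 on the plus strand. The minus strand holds those of ATR, at chr3:142169308-142169444, and RAD51D, at chr17:33433147-33433268.
XPA: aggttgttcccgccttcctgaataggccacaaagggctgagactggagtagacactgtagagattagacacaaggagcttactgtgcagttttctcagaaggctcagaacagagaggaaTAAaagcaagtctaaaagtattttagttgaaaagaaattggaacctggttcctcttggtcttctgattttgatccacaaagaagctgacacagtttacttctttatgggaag
TP53BP1: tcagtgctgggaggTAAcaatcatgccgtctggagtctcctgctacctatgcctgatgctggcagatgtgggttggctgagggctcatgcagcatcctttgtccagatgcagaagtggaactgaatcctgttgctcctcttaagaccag
RAD51C: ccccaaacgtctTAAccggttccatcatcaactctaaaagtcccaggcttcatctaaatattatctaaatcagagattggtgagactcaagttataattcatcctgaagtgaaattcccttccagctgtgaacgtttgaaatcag
ATR: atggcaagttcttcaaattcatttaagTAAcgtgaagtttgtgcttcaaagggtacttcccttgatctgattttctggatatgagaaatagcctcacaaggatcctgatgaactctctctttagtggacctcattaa
RAD51D: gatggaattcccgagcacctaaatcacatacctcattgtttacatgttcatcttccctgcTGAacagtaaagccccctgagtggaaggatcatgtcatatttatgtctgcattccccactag
With the exon joined in, the open frame ends after 264 codons in XPA, where the usual transcript has 273. It ends after 945 of 1972 codons in TP53BP1, after 239 of 376 in RAD51C, after 2596 of 2644 in ATR and after 212 of 328 in RAD51D. These counts include the codons read from the inserted exon before its stop, so less of the usual sequence is kept than they give.

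In the coding exons of FANCD2, RECQL5, POLQ and UIMC1, which are among those that fell in both lines, the stop comes with their absence. In each sequence printed next, the 12 bases before the new junction are followed by the bases after it up to the first stop in the shifted frame, in capitals. The skipped exons are those of FANCD2 at chr3:10106040-10106113, RECQL5 at chr17:73626699-73626772, POLQ at chr3:121178897-121179081 and UIMC1 at chr5:176395556-176396292. That of FANCD2 is on the plus strand and the others lie on the minus strand.
FANCD2: ccaaaagccctgTGA
RECQL5: ctgactgtgaagagcTGA
POLQ: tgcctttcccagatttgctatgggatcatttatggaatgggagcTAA
UIMC1: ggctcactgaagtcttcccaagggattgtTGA
The stop begins at base 1 after the junction in FANCD2, at base 4 in RECQL5, at base 33 in POLQ and at base 18 in UIMC1. The frame then ends after 649 of 1471 codons in FANCD2, 549 of 991 in RECQL5, 2333 of 2590 in POLQ and 160 of 719 in UIMC1. Any shifted codons between the junction and the stop are counted in.

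Of the 164 repair events tested in both lines, 17 changed the same way in both (10.4%, beside 8.59% of 19025 events over all genes), 7 upward and 10 downward, and 0 changed in opposite directions. By exon this makes 13, of which 5 rose and 8 fell. Library values below follow the order in which the tables list the replicates, and the adjusted p-values are from the quasi-binomial model. The plot of these 13 exons by library shows the DMSO and emetine libraries apart in both lines for every one of them. Where a library was left out, the p-values below keep the prior of the dispersions from the full fit, a setting chosen after seeing the data. With the prior estimated anew, no repair event was called in a line without either of its emetine libraries, while 41 to 63 of them had an unadjusted p under 0.05.

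**Figure D3:**
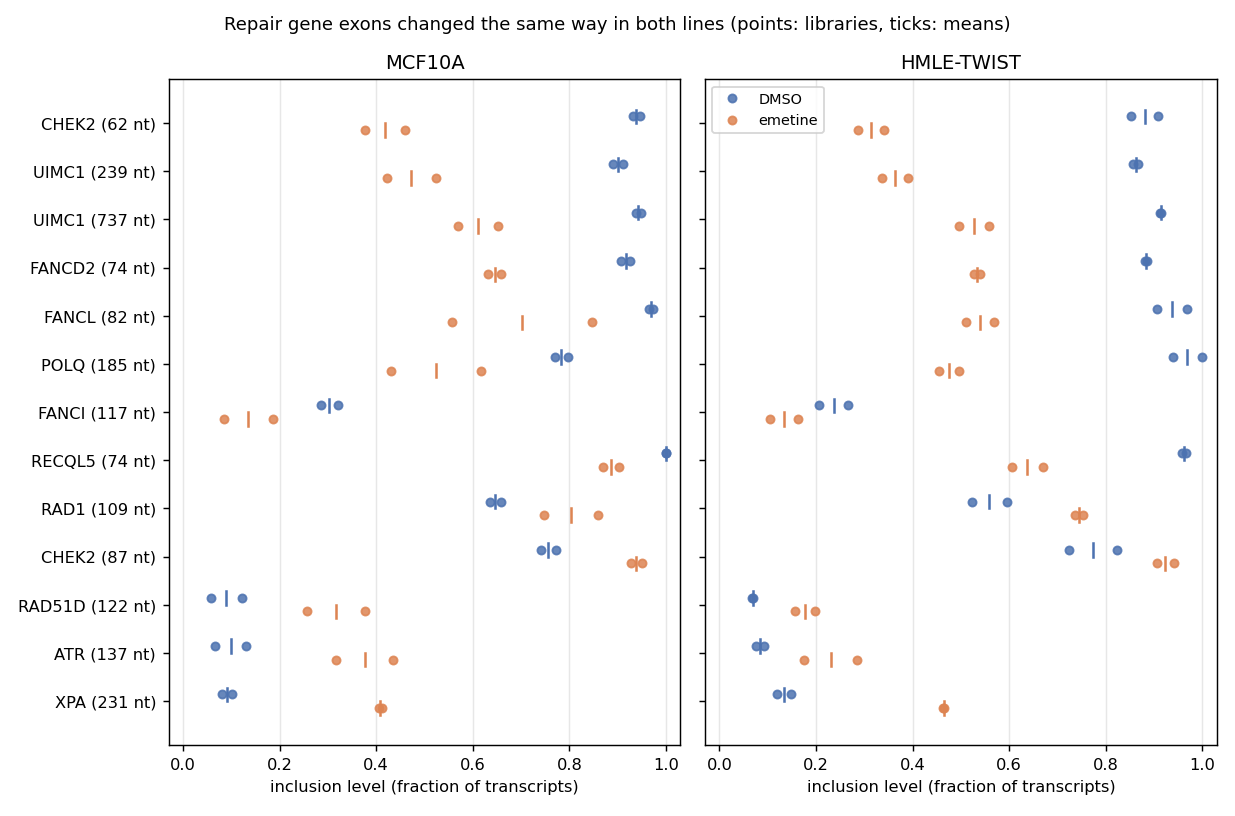
Inclusion level of the 13 repair gene exons that changed the same way in both lines by their event with the most reads. Each library is a point and group means are ticks, with DMSO in blue and emetine in orange. The CHEK2 exon of 62 nt drops most in both lines, and the XPA, ATR and RAD51D exons rise from levels of about 0.1.

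CHEK2, the checkpoint kinase downstream of ATM, had the largest fall among exons counted once in each line. Inclusion of its 62 nt coding exon, chr22:29099493-29099554, was 0.931 and 0.946 in the MCF10A DMSO libraries and 0.376 and 0.46 under emetine, a change of -0.52 (adjusted p = 1.23e-06). In HMLE-TWIST it went from 0.908 and 0.853 to 0.287 and 0.34, a change of -0.57 (adjusted p = 4.72e-05). So the inclusion form of this CHEK2 event was the more frequent one without the drug and the less frequent one with the drug, in both lines. In MCF10A the skipping reads were 14 and 12 in DMSO and 149 and 130 under emetine, while the inclusion reads were 306 and 343 in DMSO and 145 and 179 under emetine. Skipping shifts the frame, which then ends after 289 codons, shifted ones included, where the usual transcript has 543.

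A second CHEK2 coding exon moved the other way. This exon of 87 nt, chr22:29092889-29092975, keeps the frame when it is skipped and leaves 514 of 543 codons. Its inclusion was 0.74 and 0.773 in MCF10A DMSO and 0.927 and 0.95 under emetine, a rise of 0.18 (adjusted p = 0.000216). In HMLE-TWIST it was 0.724 and 0.822 against 0.941 and 0.905, a rise of 0.15 (adjusted p = 0.0126). The groups did not overlap in either line, although the HMLE-TWIST call was lost with limma (adjusted p = 0.0717), without the first control library (adjusted p = 0.052) and without the first emetine library (adjusted p = 0.0896). In MCF10A a pair of further CHEK2 exons, chosen for mention after their values were seen, also rose. An inserted exon of 114 nt with a stop went from 0.0117 and 0.0036 to 0.128 and 0.146. An exon of 129 nt that adds bases in frame went from 0.0819 and 0.068 to 0.2 and 0.168. CHEK2, FANCD2 and PMS2 have partial copies elsewhere in the genome, and how reads that match several places were counted is not given in the sources used here, so their levels carry that uncertainty.

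ATR, the kinase that senses stalled replication, gained its 137 nt exon with the stop printed above. Its level was 0.13 and 0.0667 in MCF10A DMSO and 0.317 and 0.435 under emetine, a rise of 0.28 (adjusted p = 0.00181). The HMLE-TWIST levels were 0.0917 and 0.075 in DMSO and 0.286 and 0.175 under emetine, a rise of 0.15 (adjusted p = 0.012). The treated libraries lay above the controls in both lines, with a wide gap between the treated replicates. In HMLE-TWIST the call was lost with limma (adjusted p = 0.0754) and without any of the libraries other than the second emetine one, with adjusted p-values from 0.0604 to 0.0759.

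RAD1, a subunit of the ring-shaped clamp that activates ATR at damage, was an exception to the frame pattern in both lines. It was not the only one, since 2 exons whose skipping breaks the frame rose in HMLE-TWIST. Skipping of its 109 nt coding exon, chr5:34913575-34913683, shifts the frame and leaves 68 of 282 codons, yet inclusion rose in its event with the most reads. It was 0.636 and 0.657 in MCF10A DMSO and 0.748 and 0.859 under emetine, a rise of 0.16 (adjusted p = 0.0131). In HMLE-TWIST it was 0.595 and 0.523 in DMSO and 0.735 and 0.752 under emetine, a rise of 0.18 (adjusted p = 0.00212). In both lines the groups stood apart, but limma gave adjusted p-values of 0.164 and 0.106 on the log odds. The MCF10A call was also lost without the first control library (adjusted p = 0.0586) and without the second emetine library (adjusted p = 0.0915).

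UIMC1, also called RAP80, brings a BRCA1 complex to ubiquitin at DNA breaks. Its 737 nt coding exon was included at 0.948 and 0.937 in MCF10A DMSO and at 0.569 and 0.652 under emetine, a change of -0.33 (adjusted p = 5.3e-06). In HMLE-TWIST the levels were 0.915 and 0.913 against 0.495 and 0.559, a change of -0.39 (adjusted p = 7.01e-05). The skipping reads were 20 and 28 in MCF10A DMSO and 535 and 418 under emetine. A 239 nt version of the exon, chr5:176396054-176396292, shares one splice site with it and the same skipping reads, so its fall of 0.43 in MCF10A and 0.50 in HMLE-TWIST is not independent. Skipping of the 737 nt exon alone shifts the frame, whereas skipping it together with the adjoining 106 nt exon removes 843 bases and keeps it.

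Those joint skipping reads went the other way. They numbered 36 and 43 in MCF10A DMSO and 16 and 8 under emetine, and 52 and 36 against 26 and 25 in HMLE-TWIST. Measured against this junction, inclusion of the 737 nt exon rose from 0.816 and 0.817 to 0.956 and 0.978 in MCF10A (adjusted p = 0.000296). In HMLE-TWIST it rose from 0.646 and 0.699 to 0.866 and 0.868 (adjusted p = 0.00334). Thus within UIMC1 the skipping form that breaks the frame gained reads under emetine and the one that keeps it lost reads, in both lines.

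RAD51D, a protein of homologous recombination, gained the 122 nt exon printed above. Its level was 0.0581 and 0.121 in MCF10A DMSO and 0.257 and 0.376 under emetine, a rise of 0.23 (adjusted p = 0.00454). The HMLE-TWIST levels were 0.0698 and 0.0683 in DMSO and 0.198 and 0.156 under emetine, a rise of 0.11 (adjusted p = 0.0163). Although no library crossed groups, limma gave adjusted p-values of 0.0636 and 0.0649. The MCF10A call was lost without the first control library (adjusted p = 0.0779). The HMLE-TWIST call was lost without either control library (adjusted p = 0.0844 and 0.0839), and its rise was 0.0871, under the threshold, without the first emetine library.

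Among the Fanconi genes, FANCD2, which is ubiquitinated when a crosslink is met, showed a fall of its 74 nt coding exon. Inclusion was 0.926 and 0.908 in MCF10A DMSO and 0.659 and 0.631 under emetine, a change of -0.27 (adjusted p = 0.000809). In HMLE-TWIST it was 0.886 and 0.882 against 0.54 and 0.528, a change of -0.35 (adjusted p = 0.000411). The replicates lay close together and far from the other group. FANCL, the ubiquitin ligase that modifies FANCD2, lost an 82 nt exon, chr2:58390001-58390082, which its junction skips together with a 46 nt neighbour for a loss of 128 bases. That exon went from 0.964 and 0.973 to 0.846 and 0.557 in MCF10A (adjusted p = 0.00839) and from 0.907 and 0.969 to 0.511 and 0.569 in HMLE-TWIST (adjusted p = 0.00331). The emetine libraries of MCF10A differed widely, with 4 and 14 skipping reads, but both lay below DMSO.

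The 46 nt neighbour of FANCL, chr2:58390164-58390209, shares those skipping reads and had too few reads for a test in MCF10A. In HMLE-TWIST it went from 0.798 and 0.932 to 0.287 and 0.407, a change of -0.52 (adjusted p = 0.00873), and the call was lost without the second control library (adjusted p = 0.0532). FANCI, the partner of FANCD2, changed outside its coding region, in a 5′ UTR exon of 117 nt at chr15:89788426-89788542. Its level was 0.321 and 0.285 in MCF10A DMSO and 0.187 and 0.0839 under emetine (adjusted p = 0.0212). The HMLE-TWIST levels were 0.266 and 0.207 against 0.104 and 0.162 (adjusted p = 0.0423). The FANCI changes were -0.17 and -0.10, with the groups apart in both lines. In limma the adjusted p-values were 0.127 and 0.185. The call was lost without the first control or the second emetine library in MCF10A (adjusted p = 0.115 and 0.0789), and in HMLE-TWIST without any library but the second emetine one (adjusted p from 0.0738 to 0.298).

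RECQL5, a helicase of the RecQ family, lost a 74 nt coding exon. No skipping read was seen in MCF10A DMSO, where both levels were 1, and under emetine the levels were 0.87 and 0.903 (adjusted p = 0.0032). In HMLE-TWIST they were 0.959 and 0.966 in DMSO and 0.605 and 0.671 under emetine (adjusted p = 0.000395). The fall was 0.11 in MCF10A and 0.32 in HMLE-TWIST, and the MCF10A change was -0.0975 without the first emetine library, short of the threshold. A RECQL5 exon of 41 nt, mentioned after its values were seen, went the other way in HMLE-TWIST, although its skipping shifts the frame. Its levels there were 0.79 and 0.828 in DMSO and 0.972 and 0.968 under emetine. In MCF10A they were 0.96 and 1 against 0.988 and 0.934. A 122 nt version of this exon changed by 0.05 in HMLE-TWIST, under the threshold. POLQ, the polymerase of microhomology-mediated end joining, lost a 185 nt coding exon. It was at 0.769 and 0.797 in MCF10A DMSO and 0.431 and 0.616 under emetine (adjusted p = 0.0337), and at 0.938 and 1 against 0.496 and 0.455 in HMLE-TWIST (adjusted p = 0.000513). The changes were -0.26 and -0.49. In MCF10A the POLQ call was lost with limma (adjusted p = 0.0934) and without either control library or the first emetine library (adjusted p = 0.0893, 0.157 and 0.271).

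XPA, the damage verifier of nucleotide excision repair, had the strongest shared rise. Its 231 nt exon was at 0.0808 and 0.101 in MCF10A DMSO and at 0.407 and 0.411 under emetine, a rise of 0.32 (adjusted p = 2.67e-05). In HMLE-TWIST it was at 0.149 and 0.12 in DMSO and at 0.463 and 0.466 under emetine, a rise of 0.33 (adjusted p = 0.000623). The treated replicates were nearly equal within each line, and in both lines they lay well above the controls. The inclusion reads were 16 and 21 against 196 and 226 in MCF10A, and the skipping reads rose less, from 91 and 93 to 143 and 162.

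Each line was also compared with the other for its response. Of 319 repair events tested over the 8 libraries, 6 differed in their change between the lines (1.88%, beside 1.6% of all 31825). The change was higher in HMLE-TWIST in 1 (0.313%, background 0.518%) and lower there in 5 (1.57%, background 1.08%). limma called 0 of these differences, with 50 of the 319 at an unadjusted p under 0.05 and a smallest adjusted p of 0.197, against 39 in the quasi-binomial model. The order of the events below follows the roles.

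**Figure D4:**
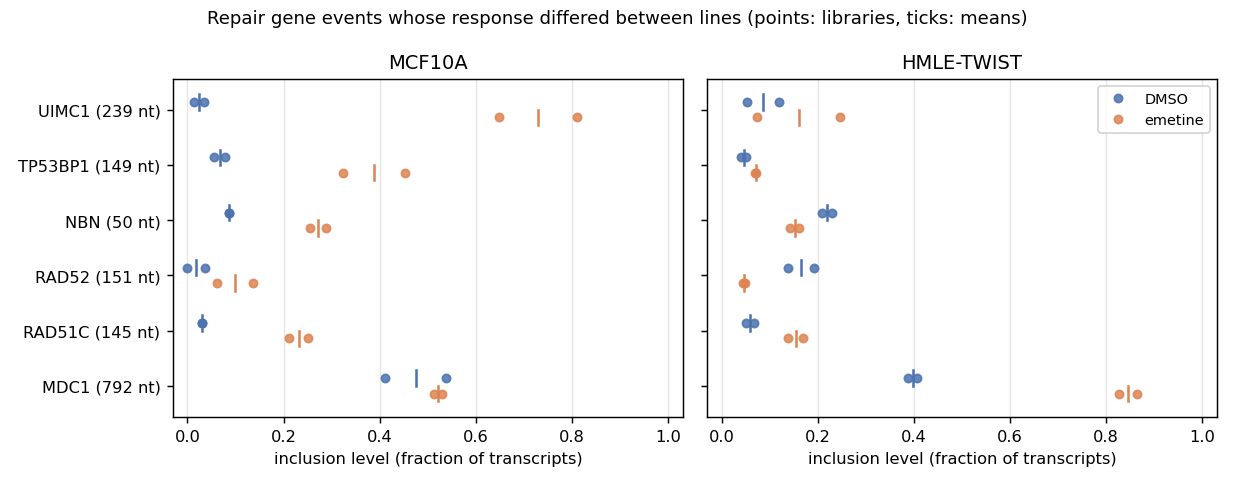
Inclusion level of the 6 repair gene events whose response to emetine differed between MCF10A (left) and HMLE-TWIST (right), with each library as a point and group means as ticks. The MDC1 exon rises from about 0.4 to above 0.8 in HMLE-TWIST, and the TP53BP1, RAD51C, NBN and UIMC1 events rise more in MCF10A.

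MDC1, the scaffold that binds marked chromatin beside breaks, had the highest rise of any tested repair exon in HMLE-TWIST. Its 792 nt coding exon, chr6:30675343-30676134, lay at 0.406 and 0.389 in DMSO and at 0.826 and 0.864 under emetine, a rise of 0.45 (adjusted p = 2.39e-05). In MCF10A it lay at 0.412 and 0.539 in DMSO and 0.513 and 0.53 under emetine, where the groups overlapped (adjusted p = 0.313). The difference of the responses was 0.40 (adjusted p = 5.03e-08). Skipping keeps the frame and leaves 1825 of 2089 codons. Without the second control library the MCF10A rise was 0.11 and passed (adjusted p = 0.0451). In HMLE-TWIST the MDC1 inclusion reads went from 201 in each control library to 1791 and 1929 under emetine, and the skipping reads from 147 and 158 to 188 and 152.

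TP53BP1, which steers breaks towards end joining, rose in MCF10A. The 149 nt exon printed above was at 0.0788 and 0.0547 in DMSO and 0.325 and 0.453 under emetine there, a rise of 0.32 (adjusted p = 0.000363). In HMLE-TWIST it was at 0.0505 and 0.0412 in DMSO and 0.0713 and 0.0698 under emetine, a change of 0.02 (adjusted p = 0.126). The response was smaller by 0.297 in HMLE-TWIST (adjusted p = 0.0143). The 145 nt version of the exon shares its skipping reads and rose alike in MCF10A, from 0.05 and 0.05 to 0.203 and 0.306.

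RAD51C, also a protein of homologous recombination, gained its 145 nt exon in MCF10A, from 0.0302 and 0.0299 in DMSO to 0.251 and 0.211 under emetine (adjusted p = 3.07e-06). In HMLE-TWIST the levels were 0.0678 and 0.0504 in DMSO and 0.169 and 0.138 under emetine (adjusted p = 0.00639). The rise there was 0.0948, under the threshold of 0.1, and it was 0.103 and 0.11, past the threshold, without the first control or the second emetine library. The response was smaller by 0.106 in HMLE-TWIST (adjusted p = 0.0436). NBN, the sensor subunit of the MRE11 complex, rose in MCF10A in an inserted 50 nt exon with a stop, chr8:90994181-90994230, from 0.0865 in both DMSO libraries to 0.256 and 0.287 (adjusted p = 0.00126). In HMLE-TWIST its levels were 0.23 and 0.21 in DMSO and 0.161 and 0.143 under emetine (adjusted p = 0.103). The difference of the responses was -0.253 (adjusted p = 0.000786), and the lines already stood apart in DMSO.

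RAD52, which anneals single strands, had a 151 nt exon at chr12:1035962-1036112 whose inclusion shifts the frame. In MCF10A it was at 0 and 0.0357 in DMSO and 0.136 and 0.0625 under emetine (adjusted p = 0.0703). In HMLE-TWIST it fell from 0.138 and 0.193 to 0.0448 and 0.0484 (adjusted p = 0.0216). It was the 1 exon called lower in HMLE-TWIST among the 30 whose inclusion breaks the frame, on 37 and 34 reads in the control libraries. The HMLE-TWIST call was lost without either control library or the first emetine library (adjusted p = 0.0589, 0.137 and 0.0613), and the MCF10A change of 0.12 passed without the second emetine library (adjusted p = 0.0195). The responses differed by -0.2 (adjusted p = 0.0133). The last of the 6 is the 239 nt version of the UIMC1 exon measured against the skipping junction that also leaves out the 106 nt exon. Its level in MCF10A was 0.0137 and 0.0337 in DMSO and 0.648 and 0.81 under emetine, and in HMLE-TWIST 0.119 and 0.0526 against 0.246 and 0.0741. That difference of -0.631 (adjusted p = 0.0025) rests on 29 reads or more per HMLE-TWIST library, where the groups overlapped.

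Besides MDC1, the exons of the breast cancer genes BRCA1 and BRCA2 that changed in HMLE-TWIST kept the frame. They were chosen for mention after their values were seen, as were the exons given after them by role, other than the RAD51D exon of 179 nt and the FANCL exon of 45 nt. The BRCA1 exon of 77 nt, chr17:41247863-41247939, was at 0.415 and 0.361 in DMSO and 0.691 and 0.645 under emetine (adjusted p = 0.00498, limma 0.0505), and its junction skips 123 bases together with a 46 nt neighbour. In MCF10A it was at 0.531 and 0.728 against 0.878 and 0.72, with overlapping groups (adjusted p = 0.146). The BRCA2 exon of 96 nt, chr13:32918695-32918790, went from 0.561 and 0.584 to 0.82 and 0.808 in HMLE-TWIST (adjusted p = 0.0276). BRCA2 had no testable event in MCF10A. A second RAD51D exon, of 179 nt at chr17:33443878-33444056, had the largest change of MCF10A among exons whose inclusion breaks the frame. It went from 0.211 and 0.05 to 0.46 and 0.506 (adjusted p = 0.0127), on 21 to 73 reads per library, and the call was lost without the second control library (adjusted p = 0.132) and with limma (adjusted p = 0.0737).

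RAD50, the bridging subunit of the MRE11 complex, changed in MCF10A at both kinds of exon. A 77 nt inserted exon with a stop rose from 0.00391 and 0 to 0.0767 and 0.13. A coding exon of 186 nt, skipped together with a neighbour for a loss of 391 bases, fell from 0.966 and 0.982 to 0.829 and 0.837. In HMLE-TWIST neither passed the threshold, at changes of 0.02 and -0.06.

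Among the remaining Fanconi genes, FANCC, a core complex subunit, gained a stop exon of 95 nt in MCF10A, from 0.0103 and 0.00549 to 0.103 and 0.228 (adjusted p = 0.00107). In HMLE-TWIST the same exon was at 0 and 0.00468 in DMSO and 0.0683 and 0.101 under emetine, a change of 0.08 below the threshold. BRIP1, the helicase that binds BRCA1, lost inclusion of a frame-shifting 128 nt exon in MCF10A, from 1 and 0.972 to 0.824 and 0.863. FANCA, another core subunit, lost inclusion of exons of 139 nt and 76 nt in HMLE-TWIST, by 0.13 and 0.11. FANCL gained a 45 nt exon, chr2:58421364-58421408, that keeps the frame in MCF10A, from 0.24 and 0.293 to 0.634 and 0.462 (adjusted p = 0.00851). The FANCL exon in HMLE-TWIST was at 0.0845 and 0.105 against 0.0592 and 0.0845, and its MCF10A call was lost with limma (adjusted p = 0.0819) and without the first emetine library (adjusted p = 0.0932). FANCM, a translocase at stalled forks, rose in HMLE-TWIST in a 78 nt frame-keeping exon, from 0.562 and 0.441 to 0.841 and 0.724 (adjusted p = 0.0312, limma 0.0731). It stood at 1 and 0.818 against 0.788 and 0.738 in MCF10A, where it did not pass (adjusted p = 0.315).

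Among the excision and mismatch genes, MUTYH, the glycosylase that removes adenine opposite oxidised guanine, had 4 events that fell in HMLE-TWIST and 2 in MCF10A, which form pairs of neighbouring exons with the same skipping reads. Its 98 nt exon went from 1 in both DMSO libraries to 0.656 and 0.728 in HMLE-TWIST (adjusted p = 0.00132), with 0 skipping reads in DMSO and 72 and 53 under emetine. LIG1, the ligase that seals replication nicks, fell in an 86 nt exon from 0.979 and 0.977 to 0.858 and 0.869 in HMLE-TWIST (adjusted p = 0.000207). ERCC2, the XPD helicase, fell in a 169 nt exon from 1 and 0.986 to 0.886 and 0.875 (adjusted p = 0.000534), and MLH3, a mismatch repair subunit, fell in a 112 nt exon from 1 and 1 to 0.816 and 0.846 (adjusted p = 0.043). ERCC8, a ubiquitin ligase subunit of transcription-coupled repair, gained a stop exon of 218 nt in HMLE-TWIST, from 0.0122 and 0.0341 to 0.148 and 0.11. In MCF10A it was at 0.0151 and 0.00787 against 0.0693 and 0.121. Both lines thus moved up, with only HMLE-TWIST past the threshold, and no difference of response was called for ERCC8.

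POLH, the polymerase that copies past ultraviolet lesions, fell in a frame-shifting 170 nt exon in HMLE-TWIST, from 0.994 and 0.986 to 0.818 and 0.86 (adjusted p = 0.000373). The POLH change in MCF10A was -0.08, from 0.993 and 0.998 to 0.889 and 0.933. WRN, the Werner syndrome helicase, fell in a 68 nt exon from 0.984 and 1 to 0.827 and 0.759 in HMLE-TWIST (adjusted p = 0.00982). PRKDC, the catalytic subunit of DNA-PK, rose in HMLE-TWIST in a pair of exons that are skipped together for a frame-keeping loss of 234 bases. Its 100 nt exon was at 0.802 and 0.819 in DMSO and 0.945 and 0.956 under emetine (adjusted p = 0.00154). RAD17, which loads the checkpoint clamp, rose in a 258 nt exon in HMLE-TWIST, from 0.859 and 0.847 to 0.97 and 1 (adjusted p = 0.0316). ATRIP, the partner of ATR, gained an exon of 85 nt that was not placed on a transcript in MCF10A, from 0.0219 and 0 to 0.197 and 0.127 (adjusted p = 0.000297), with limma at 0.0709.

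Across the 141 repair exons tested in both lines by the same event, 117 changed in the same direction (83.0%), whether or not they passed. Over all genes this held for 12467 of 16041 exons (77.7%). The scatter of the changes in the lines places CHEK2, UIMC1, FANCD2, FANCL and POLQ low in both and XPA, ATR and RAD51D high in both, with MDC1 and TP53BP1 off the diagonal. The lines share no library, so these are separate measurements, but both were made with the same drug and dose.

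**Figure D5:**
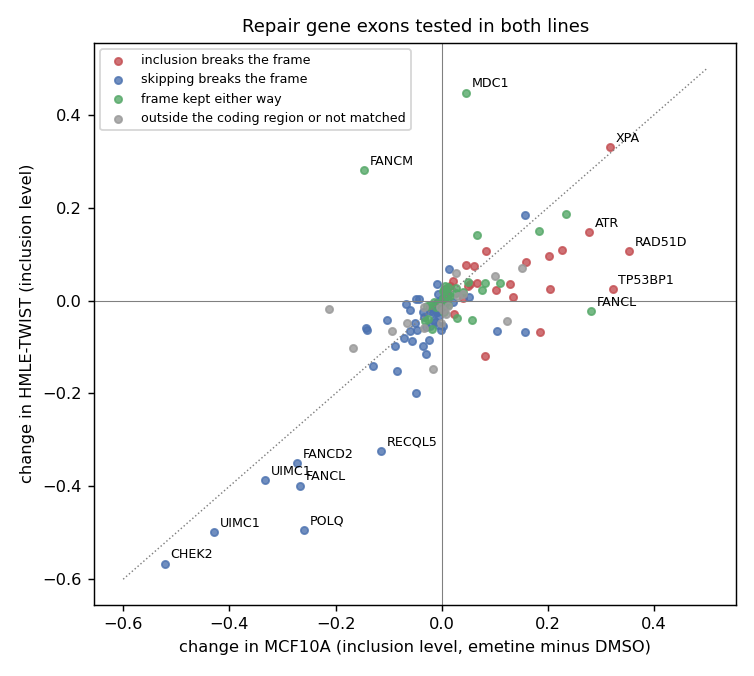
Change of inclusion level under emetine in MCF10A (horizontal) and HMLE-TWIST (vertical) for the 141 repair gene exons tested in both lines, coloured by the effect on the reading frame, with a dotted line of equal change. Of these, 117 have the same sign in both lines, and the exons farthest from 0 are named.

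As examples of exons that did not pass, the best covered tested exons of BRCA1, ATM and ATR had changes under 0.1 in size. In HMLE-TWIST the BRCA1 exon of 88 nt, chr17:41219625-41219712, was at 1 in both DMSO libraries and at 0.982 and 0.964 under emetine, a change of -0.03 (adjusted p = 0.0437). The ATR exon of 192 nt, chr3:142279105-142279296, was at 0.985 and 0.904 against 0.941 and 0.986 (adjusted p = 0.932). The 5′ UTR exon of ATM, chr11:108095511-108095598, was at 0.141 and 0.125 against 0.12 and 0.0934 (adjusted p = 0.703). The groups overlapped for ATR and did not overlap for BRCA1 and ATM. None of these exons was tested in MCF10A, where a library had only 18 reads of the ATM exon and the rarer form of the BRCA1 and ATR exons was below the minimum.

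Untreated HMLE-TWIST and MCF10A cells differed in 10 of 149 repair events (6.71%, beside 6.49% of 19301 over all genes). Levels were higher in HMLE-TWIST in 3 (2.01%, background 2.15%) and lower in 7 (4.7%, background 4.34%). limma called 0 of them, with 23 at an unadjusted p under 0.05 and a smallest adjusted p of 0.0914, against 32 in the quasi-binomial model. The 3 that were higher in HMLE-TWIST are the inserted NBN and RAD52 exons given above and the 185 nt POLQ exon, with differences of 0.13, 0.15 and 0.19. Among the lower ones, the RBBP8 exon of 70 nt was at 0.92 and 0.89 in MCF10A and 0.725 and 0.786 in HMLE-TWIST (adjusted p = 1.36e-05). RBBP8, or CtIP, starts the resection of broken ends. FANCM differed most, by -0.41 in its 78 nt exon. The others are the events of FANCL (45 nt and 101 nt exons), PRKDC (100 nt), RAD17 (258 nt) and UIMC1 (737 nt against the joint skipping), at -0.17, -0.17, -0.10, -0.13 and -0.14. The lines are in separate tables, so line and table cannot be told apart.

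Of 73 other genes of the same pathways, 55 had a tested event in MCF10A and 63 in HMLE-TWIST. Of their 192 events in MCF10A, 29 changed (15.1%), 11 upward and 18 downward, in 19 genes. In HMLE-TWIST, 52 of 284 changed (18.3%), 16 upward and 36 downward, in 27 genes. Over all tested events the shares were 13.1% in MCF10A and 14.0% in HMLE-TWIST. By the authors' deposited table, 45 of the 692 MCF10A events and 58 of the 921 HMLE-TWIST events of the 57 genes had a false discovery rate under 0.05 and a difference of at least 0.1. Over all listed events the shares in the authors' deposited tables were 6.93% and 7.59%. All 38 and 41 events called here had a false discovery rate under 0.05 in the authors' deposited table.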

How the data were processed

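Per the labels' protocols, polyadenylated RNA was made into stranded libraries and read from both ends. Per the submitters' processing notes, STAR 2.5.3a and GRCh37 were used. The deposited tables have the layout of rMATS, per the file headers, with junction counts of the inclusion and skipping forms, and the authors' p-value and false discovery rate. The deposited difference score is control minus emetine. The first group of a table was taken as DMSO from the order in its name, and the listed position as the replicate number, which could not be checked.

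Counts were fitted with a quasi-binomial logistic model (R 4.3.3) with dispersions moderated by limma 3.58.1, floored at 1, and p-values were adjusted by Benjamini-Hochberg over all tested events of a table. limma on log2 odds with 0.5 added was the alternative. Frame effects were read from GENCODE 29 transcripts matched by exon and intron lengths, never by coordinates, since 0.719% of 32832 exons had GRCh38 coordinates. On simulated data, 66.7% of 75 shifts of at least 0.1 were recovered in MCF10A and 71.2% of 73 in HMLE-TWIST, with 3 and 1 false among 55 calls each. For the difference between lines 28 of 47 were recovered, with 2 false among 34 calls, and for the untreated lines 40 of 71, with 0 false. The simulation shifted 200 events per comparison and drew all events at the median dispersion of the fit. It therefore does not show the error rate where dispersions differ between events. The deviations of same-numbered replicates from their group means had correlations of 0.0177 and 0.00667, so no pair effect was seen in these ratios. Whether same-numbered replicates were handled together cannot be told from these correlations.

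The genes and gene lists were chosen with earlier results of these data known. Repair exons named in full are those changed the same way in both lines, the 10 largest changes per line, those whose response differed, and the best covered unchanged exons of BRCA1, ATM and ATR (the tested BRCA2 exon changed). Each exon is represented by its event with the most reads. Events of a gene can share reads, and junction reads carry no molecular identifiers.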

Additional observations from a re-analysis of the deposited data

Results flagged for a closer look

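The response to emetine differed between the lines, by the test of the difference itself, in 6 repair gene events. The difference (HMLE-TWIST minus MCF10A) was 0.402 for the MDC1 exon of 792 nt, -0.253 for the NBN exon of 50 nt and -0.106 for the RAD51C exon of 145 nt. It was -0.2 for the RAD52 exon of 151 nt, -0.297 for the TP53BP1 exon of 149 nt and -0.631 for the UIMC1 exon of 239 nt. limma on the log2 odds called 0 of the 6, with adjusted p-values from 0.2 to 0.341.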

How the results depend on the processing

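No result reversed under any alternative. By limma, 25 events passed in MCF10A, 9 the same way in both lines, 0 differences between the lines and 0 between the untreated lines. With each event's own dispersion wherever larger, 11 changed the same way and 3 responses differed. With no length correction, 6 events differed between the untreated lines.

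With the replicate block, all 5 counts were 0, with 37, 52, 12 and 17 events at an unadjusted p under 0.05 in MCF10A, in HMLE-TWIST, for the difference and for the untreated lines. With the prior of the dispersions kept from the fit without the block, an alternative chosen after seeing the data, they were 38, 40, 17, 6 and 10. The cause of the 0 was not tested.

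Leaving out one replicate gave 0 to 33 events in MCF10A, 0 to 29 in HMLE-TWIST, 0 to 15 the same way, 2 to 4 differences and 0 to 6 between the untreated lines. The 0 counts came without an emetine library or, for the untreated lines, without the first HMLE-TWIST control library. With the prior kept, the ranges were 30 to 34, 29 to 40, 12 to 18, 3 to 7 and 5 to 10. Of the named calls, limma kept 12 of 18 in MCF10A and 11 of 16 in HMLE-TWIST, and 11 of 18 and 10 of 16 held without each library in turn with the prior kept. With at least 50 reads per library required, 28 and 33 events changed in MCF10A and HMLE-TWIST.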
